A study of Bos taurus with 138 samples.

Results

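GDF9 and BMP15 are growth factors of the TGF-beta superfamily that the oocyte secretes, and 6 genes through which they signal were followed with them: the receptors BMPR2, BMPR1A, BMPR1B and TGFBR1 and the signal transducers SMAD2 and SMAD3. These 8 genes were chosen by name from the 16706 gene symbols of the count table, and all 8 were present and passed the filter on low counts. Bovine (Bos taurus) GV oocytes, MII oocytes and 2-cell, 8-cell, Morula and Blastocyst embryos were compared, without any treatment arm. The embryos were produced in vitro from slaughterhouse ovaries with semen of a single bull, with cumulus and zona removed and cycloheximide added before collection. MII oocytes were matured in vitro and embryos also fertilized and cultured, so handling differed by stage. Gradients took larger pools than transcriptomes, and their lysates were cleared by centrifugation first. Differences between polysomes and transcriptomes therefore cannot be told apart from differences in preparation. For each stage, the lysates of 2 pools of oocytes or embryos (gradients A and B) were run on sucrose gradients and cut into 10 fractions, and 3 further pools (A, B and C) gave whole transcriptomes, for 120 fraction libraries and 18 transcriptomes. The study classed F1 and F2 as free RNA, F3 to F5 as monosomes and F8 to F10 as polysomes, the part of the gradient that holds mRNAs carrying many ribosomes.

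As background, GDF9 and BMP15 are made as proproteins that are cut by convertases of the furin family, and act as homodimers or as a heterodimer on the granulosa and cumulus cells around the oocyte. Both bind the type II receptor BMPR2. GDF9 then uses the type I receptor TGFBR1, which phosphorylates SMAD2 and SMAD3, whereas BMP15 uses the type I receptor BMPR1B, which phosphorylates SMAD1, SMAD5 and SMAD9. BMPR1A is a close relative of BMPR1B and serves BMP ligands. Both ligands are known for controlling follicle growth and fertility in cattle and sheep.

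Fraction libraries held between 1229382 and 17342859 counts and transcriptomes between 3269386 and 11812567, with the shallowest libraries at the Morula and Blastocyst stages. Levels are given as CPM, counts scaled to the library total with TMM factors, so that a level says nothing of the amount of RNA in a fraction. In these bulk samples fewer cells with a transcript and less of it per cell cannot be told apart. The stage labels were checked on marker genes. The summed level of 13 oocyte markers ran from 28300 to 31900 CPM in GV transcriptomes and from 43.3 to 632 CPM in Morula transcriptomes, and that of 11 blastocyst and trophectoderm markers rose from 71.9 to 86.2 CPM in GV to 5570 to 6550 CPM in Blastocyst transcriptomes. Of the cumulus and granulosa list, all 16 markers were in the table and summed to 580 to 725 CPM in GV, 642 to 838 in MII, 428 to 476 in 2-cell, 297 to 1320 in 8-cell, 45.7 to 55.5 in Morula and 308 to 924 in Blastocyst transcriptomes. In GV, STAR was the highest of the 16, at a mean of 543 CPM, and 8 of the 16 were below 1 CPM in all 3 transcriptomes. Among those 8, FOXL2 was at 0 in all 3 and FSHR at up to 0.152 CPM. In 8-cell, VCAN was the highest, at a mean of 379 CPM. In 8-cell transcriptome A, which had the sum of 1320 CPM, FSHR was at 8.06 CPM and CYP11A1 at 146 CPM. In Blastocyst, PTGS2 was the highest, at a mean of 596 CPM, and 5 of the 16 were below 1 CPM in all 3 transcriptomes. The receptors described here are also made by cumulus cells, and the part of such cells in the receptor levels was not tested. The 7 sperm markers summed to at most 31.3 CPM in any transcriptome.

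In the transcriptomes GDF9 mRNA was high in oocytes and 2-cell embryos and nearly gone by the Morula. The 3 GV transcriptomes held 3154, 2231 and 3370 CPM, those of MII 2592, 2375 and 1981 CPM and those of the 2-cell stage 1542, 1766 and 1499 CPM. At the 8-cell stage the level was 37.9, 29.2 and 120 CPM, with 4.01, 5.10 and 1.51 CPM left in the Morula and 10.9, 2.07 and 4.40 CPM in the Blastocyst. The GV and MII groups overlapped, the 2-cell group lay below both, and every 8-cell library lay far below every 2-cell library. GDF9 fell by 4.68 ± 0.97 (SE) on the log2 scale from 2-cell to 8-cell (edgeR quasi-likelihood test, adjusted p = 0.000338) and by a further 4.12 ± 0.98 from 8-cell to Morula (adjusted p = 0.00518). The 3 earlier groups were 2918 ± 605, 2316 ± 309 and 1602 ± 144 CPM (SD, n = 3 each), and neither step between them passed the test (log2 changes of -0.33 and -0.53). Morula and Blastocyst overlapped.

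From GV to 2-cell the mean level of BMP15 went up while that of GDF9 went down, a difference in course that was not tested. BMP15 stood at 2432, 1533 and 2072 CPM in GV, 2135, 2942 and 3024 in MII and 4399, 3870 and 3684 in 2-cell transcriptomes. The 2-cell libraries were the highest of all stages and did not overlap the MII libraries, but the step did not pass the test (log2 change 0.56 ± 0.70, adjusted p = 0.717). The 8-cell libraries held 176, 280 and 379 CPM, the Morula libraries 70.0, 43.2 and 5.50 CPM and the Blastocyst libraries 32.6, 8.09 and 12.6 CPM. BMP15 fell by 3.84 ± 0.78 on the log2 scale from 2-cell to 8-cell (adjusted p = 0.00026) and by 2.81 ± 0.75 from 8-cell to Morula (adjusted p = 0.0115), and the Blastocyst libraries overlapped those of the Morula. The summed oocyte markers stood at 632, 294 and 43.3 CPM in Morula transcriptomes A, B and C, where BMP15 had the same order and GDF9 was lowest in C, and at 1490, 67.0 and 221 CPM in those of the Blastocyst, where GDF9 and BMP15 were highest in A and lowest in B. The part of residual oocyte RNA in these levels was not tested.

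The receptors and SMADs fell less uniformly. BMPR1B was at 166, 156 and 144 CPM in GV, 141, 218 and 281 in MII, 326, 256 and 208 in 2-cell, 64.2, 35.3 and 32.4 in 8-cell, and between 1.60 and 3.88 CPM in the 6 Morula and Blastocyst transcriptomes. It fell by 2.58 ± 0.80 on the log2 scale from 2-cell to 8-cell (adjusted p = 0.00907) and by 4.02 ± 0.87 from 8-cell to Morula (adjusted p = 0.00256), the only receptor to fall in both steps. BMPR1A was at 73.8, 60.9 and 71.3 CPM in GV, 130, 186 and 214 in MII and 196, 222 and 199 in 2-cell, and then stood at 25.5, 16.4 and 18.5 CPM in 8-cell embryos. It fell by 3.35 ± 0.71 on the log2 scale in that step (adjusted p = 0.000416). Its Morula libraries (15.9, 16.4 and 29.5 CPM) overlapped the 8-cell ones, and its Blastocyst libraries (33.8, 44.4 and 48.4 CPM) lay above the Morula ones without passing the test (adjusted p = 0.275). SMAD3 had few reads in the transcriptomes: 5.01, 2.87 and 4.76 CPM in GV, 4.24, 6.49 and 3.69 in MII, 11.9, 11.2 and 14.8 in 2-cell and between 0.323 and 1.65 CPM in the 9 later libraries. It fell by 3.71 ± 0.82 on the log2 scale from 2-cell to 8-cell (adjusted p = 0.000591).

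BMPR2, TGFBR1 and SMAD2 passed the test in no step of the transcriptome. BMPR2, the shared type II receptor, was the steadiest: 22.3, 23.5 and 22.8 CPM in GV, 73.5, 58.2 and 59.8 in MII, 55.5, 59.9 and 34.5 in 2-cell, 29.7, 34.9 and 33.7 in 8-cell, 27.9, 23.0 and 22.8 in Morula and 29.4, 40.2 and 35.8 in Blastocyst. The MII libraries were all above the GV libraries (log2 change 1.48 ± 0.61, adjusted p = 0.0963). TGFBR1 went down in the order GV (37.3 to 43.1 CPM), 2-cell (31.0 to 33.6), MII (16.8 to 24.04), 8-cell (16.7 to 23.1), Morula (9.05 to 10.1) and Blastocyst (0.829 to 2.80), where MII and 8-cell overlapped and the other neighbours in that order did not. SMAD2 stood at 396, 451 and 490 CPM in MII, above 2-cell (299.9, 294 and 286 CPM) and GV (291, 245 and 251 CPM), which overlapped, and at 55.3 to 127 CPM from 8-cell on. Its difference from 2-cell to 8-cell, with groups that did not overlap, was -1.51 ± 0.65 on the log2 scale (adjusted p = 0.0527). It passed with DESeq2 (adjusted p = 0.0278), the likelihood ratio test (0.0364), RLE size factors (0.0383) or no filter (0.0367).

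**Figure D1:**
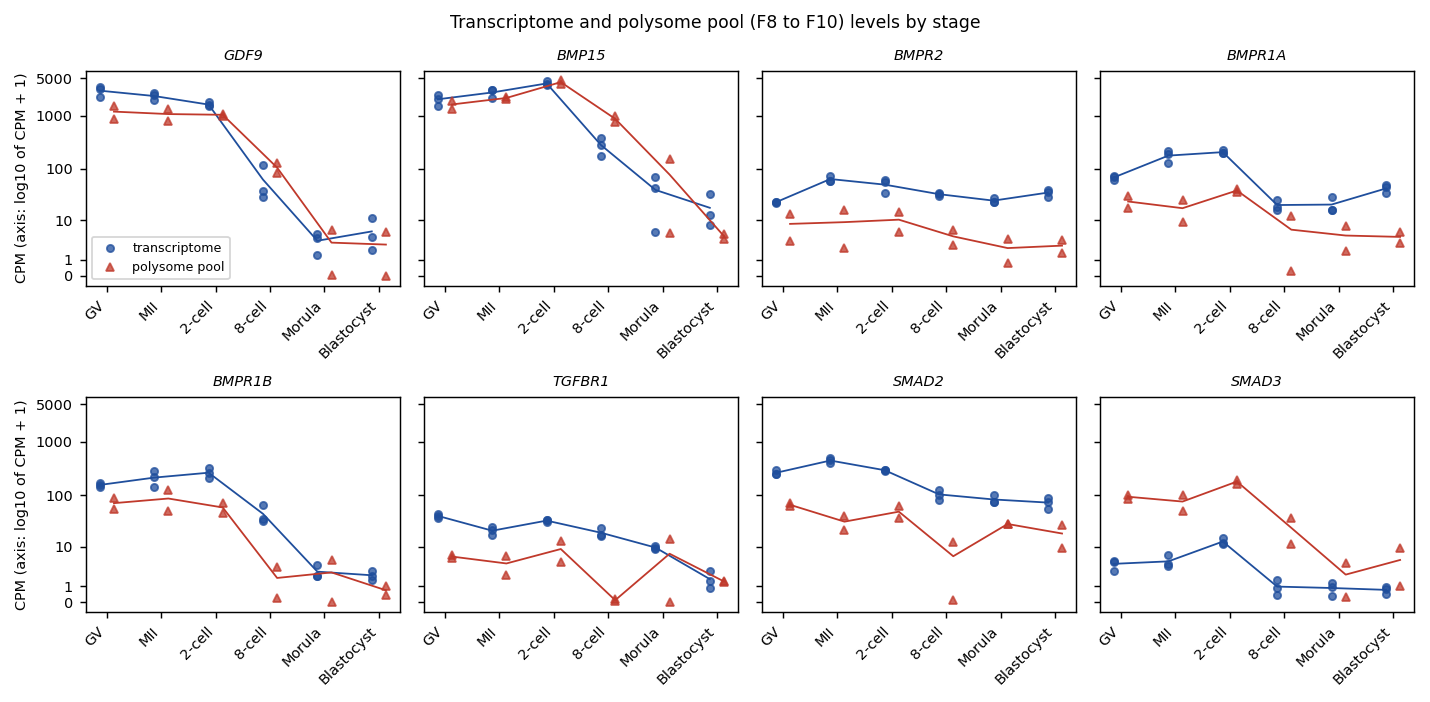
Level of each of the 8 genes by stage, in CPM on an axis of log10(CPM + 1). Blue circles are the 3 transcriptomes of a stage and red triangles the 2 polysome pools (summed F8 to F10), with lines through the group means; GDF9 and BMP15 drop from at least 1499 CPM at 2-cell to at most 379 CPM in 8-cell transcriptomes, and SMAD3 is the only gene with polysome pools above the transcriptomes from GV to 8-cell.

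A gene was called between 2 consecutive stages at an adjusted p below 0.05 with more than a 2-fold change, over 14612 genes tested. In the transcriptome, 5 of the 8 genes fell from 2-cell to 8-cell (GDF9, BMP15, BMPR1A, BMPR1B and SMAD3) and none rose. Over all genes 23.5% fell and 26.6% rose in that step, and the median log2 change was -2.97 for the 8 genes and 0.03 for all genes. From 8-cell to Morula 3 fell (GDF9, BMP15 and BMPR1B), beside 7.75% of all genes that fell and 6.6% that rose. No member was called between GV and MII (10.5% of all genes fell and 6.61% rose), between MII and 2-cell (5.96% fell and 6.0% rose) or between Morula and Blastocyst (11.4% fell and 10.2% rose). At an unadjusted p below 0.05 the edgeR quasi-likelihood test gave 2, 0 and 1 members in these 3 steps, DESeq2 called 1 (BMPR2), 0 and 1 (TGFBR1), and the edgeR likelihood ratio test 0, 0 and 1. Each of the 8 calls held when any library of the groups compared was left out.

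The spread in that model is shared with the polysome pools, which varied more than the transcriptomes. When the 18 transcriptomes were fitted alone, a choice made after the data were examined, 14 of the 40 tests were called instead of 8. Over all genes 35.6%, 25.8%, 66.4%, 33.6% and 41.9% were then called in the 5 steps from GV to Blastocyst. The added calls were higher BMPR1A (log2 change 1.36 ± 0.24, adjusted p = 6.25e-05) and BMPR2 (1.48 ± 0.22, adjusted p = 9.83e-06) from GV to MII, and higher SMAD3 from MII to 2-cell (1.38 ± 0.43, adjusted p = 0.0145). They were also lower SMAD2 from 2-cell to 8-cell (-1.49 ± 0.20, adjusted p = 5.11e-07), lower TGFBR1 (-2.42 ± 0.34, adjusted p = 2.86e-06) and higher BMPR1A (1.07 ± 0.25, adjusted p = 0.000946) from Morula to Blastocyst. In the joint model BMPR2 and BMPR1A had nearly the same log2 changes from GV to MII, 1.48 and 1.36, with SEs of 0.61 and 0.66.

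Polysome-occupied mRNA was next compared between stages, with the counts of F8, F9 and F10 summed within each gradient. From 2-cell to 8-cell 7 of the 8 genes fell on polysomes and none rose, beside 25.2% of all genes that fell and 21.0% that rose. GDF9 went from 993 and 1070 CPM in the 2-cell pools to 127 and 82.6 in the 8-cell pools, a fall of 3.30 ± 1.12 on the log2 scale (adjusted p = 0.0187). BMP15 went from 3893 and 4540 to 989 and 746 CPM, a fall of 2.28 ± 0.89 (adjusted p = 0.0387). The groups did not overlap for either ligand. The GDF9 call was lost without either 8-cell pool (adjusted p = 0.0519 without A and 0.0847 without B) and kept without either 2-cell pool. The BMP15 call was lost when any of the 4 pools was left out (adjusted p between 0.0724 and 0.137).

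Among the receptors, BMPR1B dropped from 46.6 and 69.7 CPM on 2-cell polysomes to 0.205 and 3.47 CPM on 8-cell polysomes (log2 change -4.95 ± 1.09, adjusted p = 0.000808). BMPR1A dropped from 40.5 and 36.6 to 0.246 and 12.4 CPM (-2.60 ± 0.84, adjusted p = 0.0146). TGFBR1 all but disappeared: the 8-cell pools held 5 counts in all, against 593 in the 2-cell pools, a ratio of 0.00942 after scaling (95% exact interval 0.00305 to 0.0221, counting error only), and the fitted log2 change was -6.60 ± 1.38 (adjusted p = 0.00047). For SMAD2 the pools went from 35.9 and 60.9 to 0.082 and 12.4 CPM (-2.94 ± 0.84, adjusted p = 0.00615), and for SMAD3 from 194 and 165 to 36.0 and 11.2 CPM (-2.93 ± 0.92, adjusted p = 0.0118, and 0.079 without 8-cell pool B). The 2 gradients of 8-cell embryos stood far apart for BMPR1A, BMPR1B and SMAD2, with 6, 5 and 2 counts in pool A and 457, 128 and 457 in pool B. BMPR2 was the exception, with overlapping groups (14.9 and 5.63, then 2.71 and 6.26 CPM).

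From 8-cell to Morula 3 genes fell on polysomes, beside 17.7% of all genes, and 2 rose, beside 18.5%. GDF9 reached 0.048 and 6.33 CPM (-5.00 ± 1.22, adjusted p = 0.00288), BMP15 5.25 and 150 CPM (-3.48 ± 0.94, adjusted p = 0.00589) and SMAD3 0.241 and 4.31 CPM (-3.35 ± 0.94, adjusted p = 0.008). The fall of SMAD3 lost its call without 8-cell pool A (adjusted p = 0.0696) or without Morula pool A (0.0651). SMAD2 rose to 27.4 and 28.6 CPM (2.15 ± 0.81, adjusted p = 0.0401), a call that was lost without 8-cell pool A (adjusted p = 0.0679), Morula pool A (0.0768) or Morula pool B (0.0644). TGFBR1 was at 0 in Morula pool A and at 14.1 CPM (491 counts) in pool B. Its called rise of 6.27 ± 1.36 on the log2 scale (adjusted p = 0.00112) rested on pool B alone, and without it the change was -3.67 (adjusted p = 0.166). In 6 of the 8 genes, SMAD2 and BMPR1A apart, the Morula pools differed more than 5-fold between gradients or held no read in pool A. Of these 6, BMPR2 was higher in pool A, at 3.90 against 0.719 CPM, and the rest were higher in pool B. A count of 0 allows up to 3 counts. The summed oocyte markers stood at 175 CPM in Morula pool A and 689 CPM in pool B, and their part in these differences was not tested.

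No gene was called on polysomes from GV to MII (3.03% of all genes rose and 2.33% fell) or from MII to 2-cell (3.37% rose and 5.14% fell). The quasi-likelihood test gave 0 members at an unadjusted p below 0.05 in both steps, and DESeq2 and the likelihood ratio test called 0. On GV polysomes GDF9 stood at 864 and 1503 CPM and BMP15 at 1332 and 1889, and on MII polysomes at 784 and 1343 and at 2255 and 2007. From Morula to Blastocyst 1 gene fell, BMP15, to 3.87 and 5.19 CPM (-4.09 ± 0.98, adjusted p = 0.00745), beside 8.13% of all genes that fell and 5.79% that rose. Without Morula pool B its change was -0.21 (adjusted p = 1.0), and without Blastocyst pool A or B the adjusted p was 0.0618 or 0.0572. GDF9 had 131 counts in Blastocyst pool A and 0 in pool B.

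Comparing polysome pools with the transcriptome of the same stage asks which transcripts are over- or under-represented on polysomes. The 2 ligands were called in no stage. For GDF9 the pools lay below every transcriptome in GV (log2 difference -1.30 ± 0.97, adjusted p = 0.301), MII (-1.12 ± 0.97, adjusted p = 0.327) and 2-cell (-0.64 ± 0.95, adjusted p = 0.601), and the groups overlapped in 8-cell, Morula and Blastocyst. All 20 fraction libraries of GV and of MII lay below the lowest GDF9 transcriptome, as they did for 22.8% and 24.2% of all genes. BMP15 overlapped in GV, MII, 2-cell and Morula. In 8-cell embryos both BMP15 pools (989 and 746 CPM) lay above the 3 transcriptomes (176 to 379 CPM), a difference of 1.64 ± 0.77 that did not pass (adjusted p = 0.0693). In Blastocysts both pools (3.87 and 5.19 CPM) lay below the transcriptomes (8.09 to 32.6 CPM), a difference of -1.95 ± 0.87 (adjusted p = 0.0761).

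The receptors and SMAD2 were lower on polysomes than in the transcriptome wherever they were called. The difference was not limited to polysome fractions. In each of those stages at least 17 of the 20 fraction libraries lay below the lowest transcriptome for the gene called. All 20 did for BMPR2 in MII and 2-cell, BMPR1A in MII, 2-cell and Blastocyst, BMPR1B in 2-cell and TGFBR1 in GV and 8-cell. They also did for SMAD2 in GV, MII, 2-cell and 8-cell. Over all genes 22.8% in GV, 24.2% in MII, 21.1% in 2-cell, 17.3% in 8-cell and 9.72% in Blastocyst had all 20 below. BMPR2 was lower by 2.28 to 3.71 on the log2 scale from MII to Blastocyst. In MII oocytes it was at 15.9 and 2.32 CPM on polysomes beside 58.2 to 73.5 CPM in transcriptomes (-2.81 ± 0.75, adjusted p = 0.00277), and in Blastocysts at 3.70 and 1.66 beside 29.4 to 40.2 CPM (-3.71 ± 0.79, adjusted p = 0.000664). BMPR1A was lower in MII (-3.34 ± 0.84, adjusted p = 0.00162), 2-cell (-2.41 ± 0.80, adjusted p = 0.0144), Morula (-2.12 ± 0.79, adjusted p = 0.0288) and Blastocyst (-3.27 ± 0.84, adjusted p = 0.00347). SMAD2 was lower in GV (-2.005 ± 0.76, adjusted p = 0.0393), MII (-3.84 ± 0.84, adjusted p = 0.000438), 2-cell (-2.60 ± 0.79, adjusted p = 0.00806), 8-cell (-4.03 ± 0.85, adjusted p = 0.000335) and Blastocyst (-1.98 ± 0.77, adjusted p = 0.0422). In MII oocytes the SMAD2 pools were at 40.4 and 21.8 CPM beside 396 to 490 CPM in transcriptomes.

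The type I receptors that GDF9 and BMP15 use were called lower in the 8-cell embryo and in 1 earlier stage each. TGFBR1 was at 0.123 and 0.054 CPM on 8-cell polysomes and at 16.9, 16.7 and 23.1 CPM in transcriptomes (-7.69 ± 1.41, adjusted p = 7.09e-05), and was lower in GV as well (-2.71 ± 1.04, adjusted p = 0.0411). BMPR1B was lower in 8-cell (-4.55 ± 1.05, adjusted p = 0.000769) and 2-cell embryos (-2.18 ± 0.91, adjusted p = 0.0491). The calls for TGFBR1 and SMAD2 in GV and for BMPR1B in 2-cell were lost when any one of the 5 libraries was left out, with adjusted p up to 0.183, 0.181 and 0.216. Those for BMPR2 in 2-cell were lost without pool B (adjusted p = 0.137), for BMPR1A in 2-cell without pool A or B (0.0734 and 0.09), in Morula without pool A or transcriptome C (0.201 and 0.0829) and in Blastocyst without pool B (0.0535), and for SMAD2 in 2-cell without pool A (0.0866) and in Blastocyst without pool B, transcriptome B or transcriptome C (0.273, 0.0695 and 0.0895).

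Unlike the rest, SMAD3 was higher on polysomes than in the transcriptome. The pools held 86.0 and 99.7 CPM in GV, 102 and 48.8 in MII, 194 and 165 in 2-cell and 36.0 and 11.2 in 8-cell, all above every transcriptome of the stage. The differences were 4.46 ± 0.84 (adjusted p = 0.000157), 3.97 ± 0.83 (adjusted p = 0.000266), 3.83 ± 0.82 (adjusted p = 0.000405) and 4.61 ± 0.87 (adjusted p = 0.000102) on the log2 scale. In Blastocysts (1.001 and 9.32 CPM on polysomes) the difference was 2.90 ± 0.94 (adjusted p = 0.017), but 0.54 (adjusted p = 0.737) without pool B and 2.59 (adjusted p = 0.0689) without transcriptome B. It did not pass in Morulae (1.44 ± 0.85, adjusted p = 0.157). The difference was not limited to polysome fractions: all 20 fraction libraries of GV and of 2-cell, 19 of MII and 19 of 8-cell lay above the highest transcriptome of the stage, F1 and F2 included. In GV the fractions ran from 65.7 to 240 CPM beside 3.12 to 5.66 CPM in the transcriptomes, with all libraries scaled together. Over all genes 15.5% in GV, 10.6% in MII, 7.45% in 2-cell and 4.61% in 8-cell had all 20 fraction libraries above the transcriptomes.

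**Figure D2:**
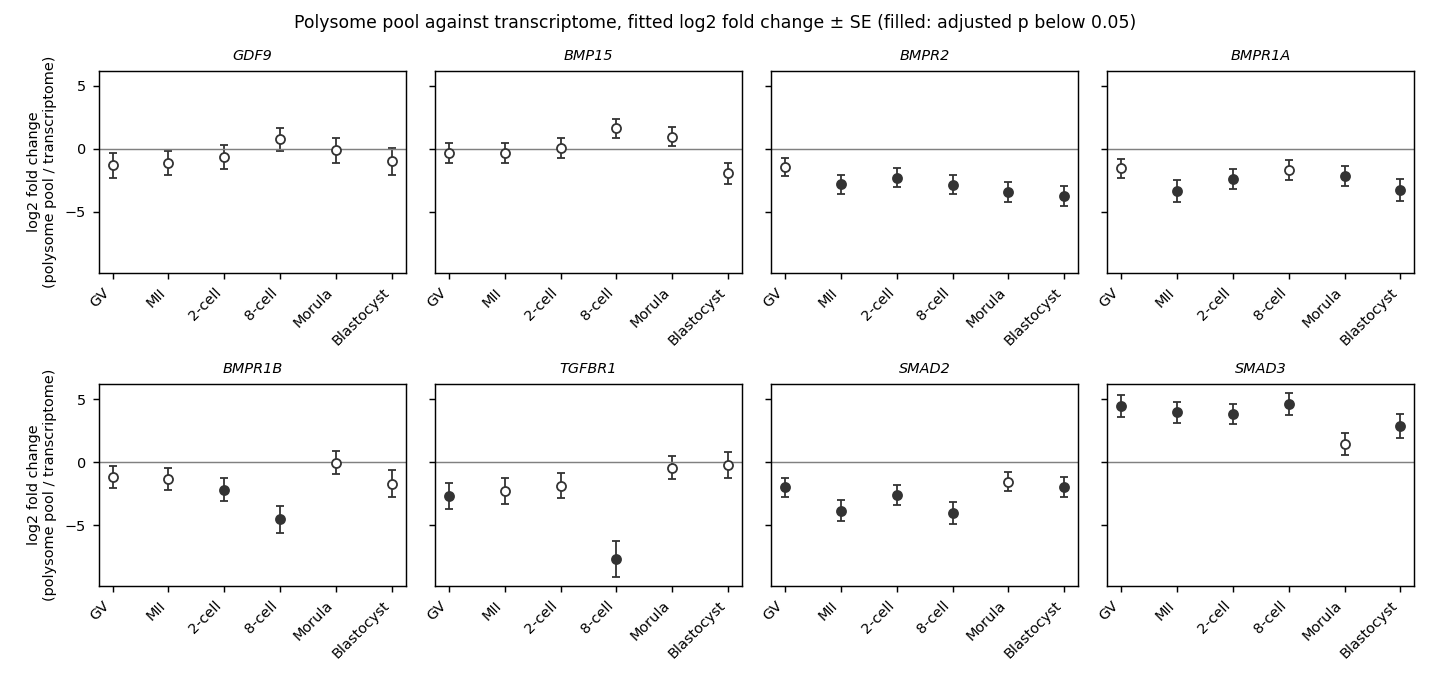
Fitted log2 fold change ± SE of the polysome pool (n = 2) over the transcriptome (n = 3) for each gene and stage, with filled points where the adjusted p was below 0.05. SMAD3 lies above 0 in every stage, the receptors and SMAD2 lie below 0, and TGFBR1 in 8-cell embryos is the lowest point at -7.69.

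In all, 18 of the 48 tests were called lower on polysomes and 5 higher, the latter all SMAD3. By stage 2, 3, 4, 4, 2 and 3 of the 8 genes were lower from GV to Blastocyst, beside 17.7%, 26.7%, 21.9%, 31.0%, 25.2% and 20.1% of all genes. For the higher direction, 1 gene was called in each stage but the Morula, which had 0, beside 22.2%, 30.8%, 29.1%, 28.0%, 26.5% and 20.0% of all genes. The 2 of 8 in the Morula stood at the share of all genes, and the 4 of 8 in 2-cell and 8-cell above it. In the higher direction the members lay below the share in every stage. With 8 genes such differences from the share amount to few genes, and some 2-cell calls depended on single libraries, as given above.

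Whether polysome representation changed between stages was tested as the polysome change minus the transcriptome change. From 2-cell to 8-cell TGFBR1 fell more on polysomes than in the transcriptome (-5.81 ± 1.53 on the log2 scale, adjusted p = 0.0149), 1 of the 8 genes beside 12.2% of all genes. The transcriptome of TGFBR1 went from 31.0 to 33.6 CPM down to 16.7 to 23.1 CPM in that step. With fractions and transcriptomes scaled together, its mean in the monosome fractions F3 to F5 went from 13.7 and 13.6 CPM to 0 and 1.34 CPM (gradients A and B). The fall was thus not limited to polysome fractions. The difference was kept without 9 of the 10 libraries in turn and missed the threshold without 2-cell pool B (adjusted p = 0.0642). From 8-cell to Morula 2 genes were called, beside 12.5%: TGFBR1 (7.26 ± 1.57, adjusted p = 0.00366) and BMPR1B (4.52 ± 1.29, adjusted p = 0.0231). Both turned negative without Morula pool B (-2.69 and -4.03, adjusted p = 0.401 and 0.315), since pool A held 0 counts of either gene. The BMPR1B call was also lost without 8-cell pool A (adjusted p = 0.0661), 8-cell transcriptome A (0.0522), Morula transcriptome A (0.0517) or Morula transcriptome B (0.0511), and was kept without 5 of the 10 libraries in turn. No member was called in the steps to MII, to 2-cell or to Blastocyst, beside 10.6%, 1.81% and 12.3% of all genes. The unadjusted p was below 0.05 for 0, 0 and 1 members in these steps, DESeq2 called 0, and the likelihood ratio test called 0, 0 and 1.

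Each of the 10 fractions gave the level of an mRNA relative to the other mRNAs of that library, with fractions and transcriptomes scaled together. In GV oocytes the level of GDF9 was higher in the heavy than in the light fractions. Gradient A held 290, 253 and 244 CPM in F3 to F5 and 656, 811 and 1045 CPM in F8 to F10, and gradient B held 239, 225 and 312 and then 822, 1727 and 1785 CPM. The mean of F8 to F10 was 3.19 and 5.59 times that of F3 to F5. In MII oocytes the order was the opposite in both gradients, with 1879, 1774 and 2110 CPM in F3 to F5 of A (2182, 2200 and 1882 in B) and 771, 719 and 560 CPM in F8 to F10 of A (774, 1878 and 893 in B). The ratios were 0.356 and 0.566 in MII, 0.331 and 0.449 in 2-cell, 0.302 and 0.169 in 8-cell and at most 0.271 in Morula and Blastocyst. In 2-cell embryos the level of GDF9 was highest in F3 of both gradients, at 3812 and 2360 CPM.

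The level of BMP15 in GV oocytes went from a mean of 755 and 894 CPM in F3 to F5 to 1292 and 1796 CPM in F8 to F10, ratios of 1.71 and 2.01. In MII and 2-cell the levels were closer to each other, with ratios of 1.12 and 0.889 and of 0.789 and 1.06. In 8-cell embryos its level was higher in the light fractions, with 4041, 2389 and 2214 CPM in F3 to F5 of gradient A and 1071, 1038 and 550 CPM in F8 to F10, and with 3992, 3864 and 4460 and then 888, 823 and 285 CPM in gradient B. The ratio was 0.308 and 0.162 in 8-cell, at most 0.180 in Morula and at most 0.0741 in Blastocyst. Of the 20 fraction libraries of 8-cell embryos, 19 lay above the highest transcriptome for BMP15 (445 CPM on this scale) and 15 for GDF9 (141 CPM). In Morulae 11 lay above the highest transcriptome for BMP15 (76.9 CPM) and 10 for GDF9 (5.66 CPM). Below the lowest Morula transcriptome were 2 for BMP15 and 9 for GDF9. In F3 of Morula gradients A and B, BMP15 stood at 93.5 and 1219 CPM and GDF9 at 35.7 and 227 CPM. In Blastocysts 7 lay above and 7 below for BMP15, and 4 above and 12 below for GDF9.

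**Figure D3:**
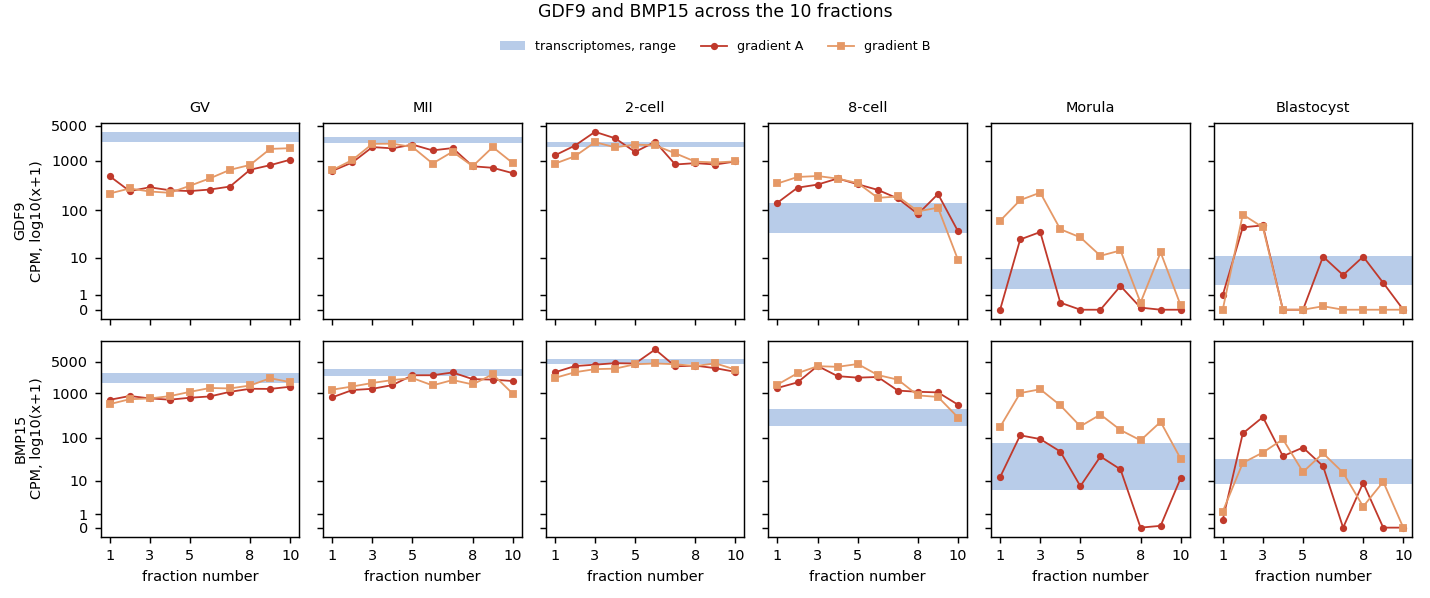
GDF9 (top) and BMP15 (bottom) in fractions F1 to F10 of gradients A and B at each stage, in CPM on an axis of log10(CPM + 1), with the range of the 3 transcriptomes as a blue band. GDF9 rises from F5 to F10 in GV and falls from F5 to F8 in the later stages up to 8-cell, and most fractions of 8-cell embryos lie above the band.

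Tested as heavy (F8 to F10) against light (F3 to F5) pools, 1 of 48 member tests was called: BMP15 in Blastocysts, lower in heavy fractions by 4.65 ± 1.07 on the log2 scale (adjusted p = 0.0378), beside 1.43% of all genes. That call was lost without gradient A (adjusted p = 0.29) or B (0.199). Heavy and light pools of a gradient come from one lysate, and with the gradient as a block 5 tests were called, adding BMP15 in 8-cell (-2.21, adjusted p = 0.0201) and Morula (-2.96, adjusted p = 0.027) and SMAD3 in 8-cell (-3.55, adjusted p = 0.0273) and Morula (-4.41, adjusted p = 0.0378). The other 5 stages had 0 members called, beside 0.498% of all genes in GV, 0.437% in MII, 0.0% in 2-cell, 9.35% in 8-cell and 1.59% in Morula. At an unadjusted p below 0.05 the quasi-likelihood test gave 0, 0, 0, 2 and 4 members there, and over all stages DESeq2 called 5 and the likelihood ratio test 4. For GDF9 the heavy against light difference was 2.09 ± 1.27 in GV (adjusted p = 0.735) and -1.08 ± 1.24 in MII (adjusted p = 0.937), and the groups did not overlap in either stage. The difference between the 2 stages, added after the data were examined, did not pass either: 0 members were called in any of the 5 steps from GV to Blastocyst, beside 0.0%, 0.0%, 1.59%, 1.24% and 0.45% of all genes. At an unadjusted p below 0.05 that test gave 1 member, from 8-cell to Morula, and DESeq2 and the likelihood ratio test called 0.

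A slope over F3 to F10, fitted to the 16 single fractions of a stage with the gradient as a term, called 9 of the 48 member tests, all falling toward the heavy end. Neighbouring fractions of a gradient share one lysate, so the test takes as separate what is not. GDF9 fell by 0.43 ± 0.16 per fraction on the log2 scale in 8-cell (adjusted p = 0.0346), 0.998 ± 0.15 in Morula (adjusted p = 1.86e-06) and 1.11 ± 0.18 in Blastocyst (adjusted p = 8.45e-06). BMP15 fell by 0.42 ± 0.13 (adjusted p = 0.00975), 0.52 ± 0.11 (adjusted p = 0.000629) and 1.07 ± 0.14 (adjusted p = 1.16e-07) in the same stages. SMAD3 fell by 0.75 ± 0.22 in 8-cell (adjusted p = 0.00741) and 0.78 ± 0.22 in Morula (adjusted p = 0.0112), and SMAD2 by 0.77 ± 0.28 in 8-cell (adjusted p = 0.029). Thus 4 members fell in 8-cell, 3 in Morula and 2 in Blastocyst, beside 14.8%, 7.45% and 3.63% of the 13104 genes tested. In GV, MII and 2-cell 0 members fell, beside 1.29%, 1.94% and 0.748%. The slope of GDF9 in GV was 0.38 ± 0.14 (adjusted p = 0.132).

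The levels of the receptors varied widely between fraction libraries. In GV oocytes BMPR1B lay between 7.71 and 129 CPM in the 20 fraction libraries, with its highest level in F3 of gradient B (129 CPM) and in F10 of gradient A (92.1 CPM). BMPR1A lay between 2.08 and 40.1 CPM and TGFBR1 between 0.149 and 18.2 CPM, both highest in F3 or F4. All 20 GV fraction libraries lay below the lowest transcriptome for BMPR1A, BMPR1B, TGFBR1 and SMAD2, and 19 did for BMPR2. BMPR2 was highest in F10 in GV, at 8.03 CPM in A and 33.3 CPM in B. In 8-cell embryos BMPR1A and BMPR1B were highest in F2 of both gradients, classed as free RNA, at 57.0 and 27.0 CPM and at 47.8 and 45.8 CPM. TGFBR1 was above 1 CPM in only 2 of the 20 8-cell fractions, F6 of A (10.9 CPM) and F4 of B (3.93 CPM). In Morulae it stood at 9.09, 7.64 and 18.8 CPM in F8 to F10 of gradient B and at 0 in those of gradient A.

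**Figure D4:**
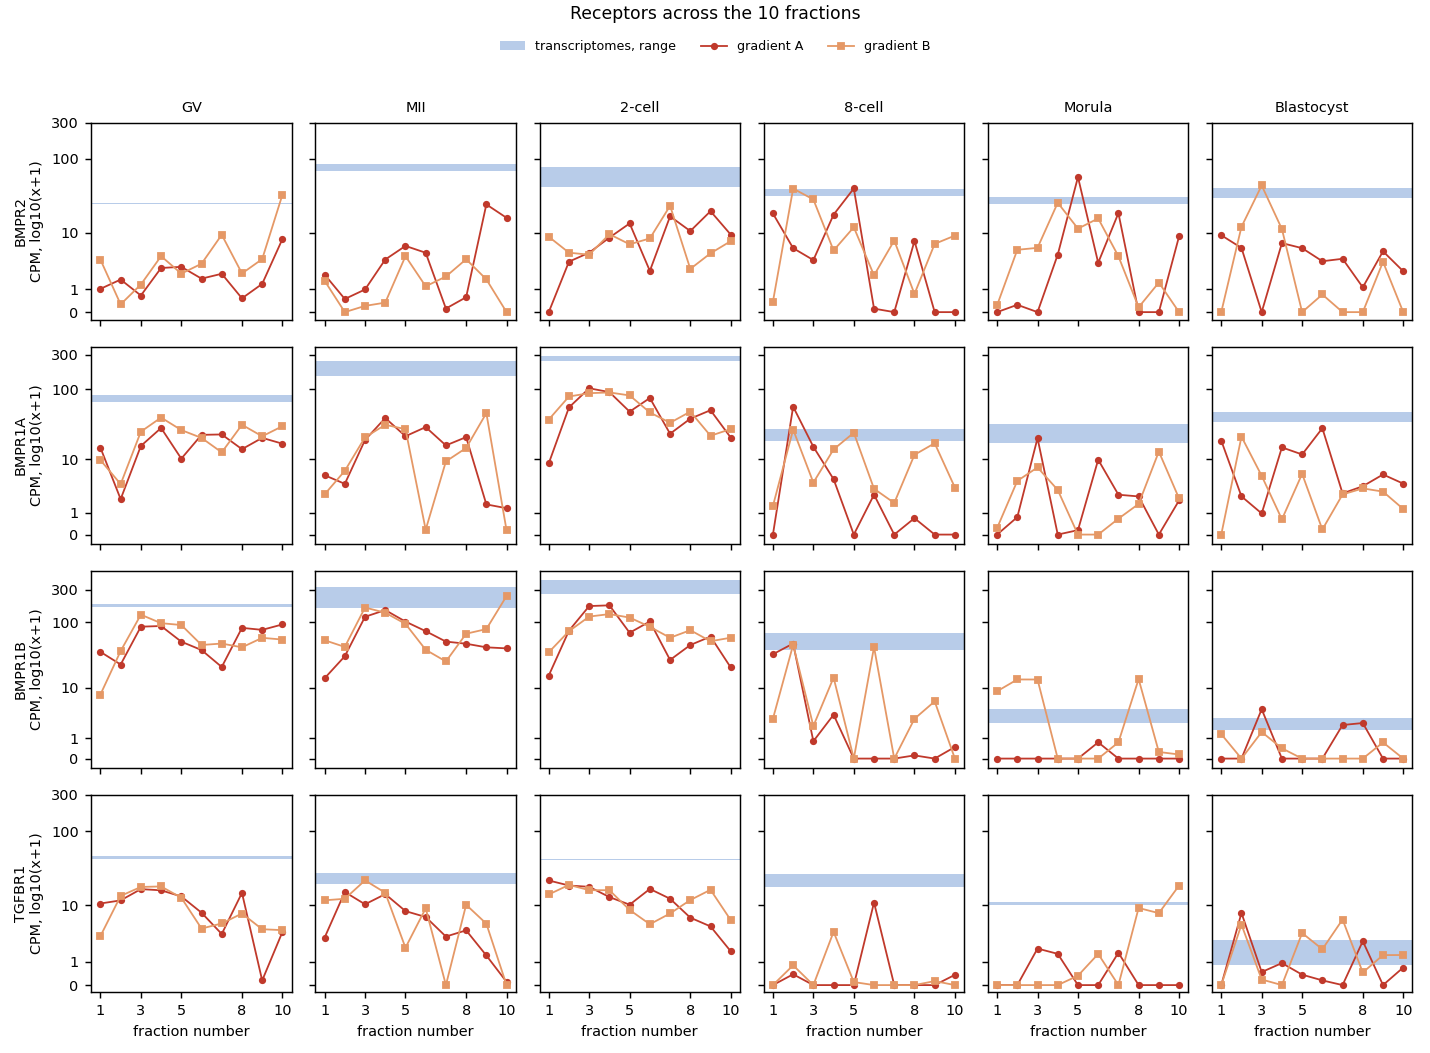
BMPR2, BMPR1A, BMPR1B and TGFBR1 (rows) in fractions F1 to F10 of gradients A and B at each stage (columns), in CPM on an axis of log10(CPM + 1), with the range of the 3 transcriptomes as a blue band. Most fractions of each gene lie below the band at every stage. TGFBR1 is at or near 0 in 18 of 20 fractions of 8-cell embryos.

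SMAD2 in GV was highest in F1 (97.9 CPM) and F4 (90.4 CPM) of gradient A and in F3 of gradient B (214 CPM). In MII its mean was 79.9 and 53.8 CPM in F3 to F5 and 35.5 and 17.2 CPM in F8 to F10. All 20 fraction libraries of GV, MII, 2-cell and 8-cell lay below the lowest transcriptome for SMAD2, the opposite of SMAD3. Over all genes 22.8%, 24.2%, 21.1% and 17.3% had all 20 below in these stages. SMAD3 was highest in F2 or F3 in GV and MII (240 and 143 CPM at most). In 8-cell embryos it held 209, 249 and 42.1 CPM in F3 to F5 of gradient A and 38.1, 55.7 and 0 CPM in F8 to F10, and in gradient B 334, 236 and 202 and then 20.1, 7.77 and 3.30 CPM.

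**Figure D5:**
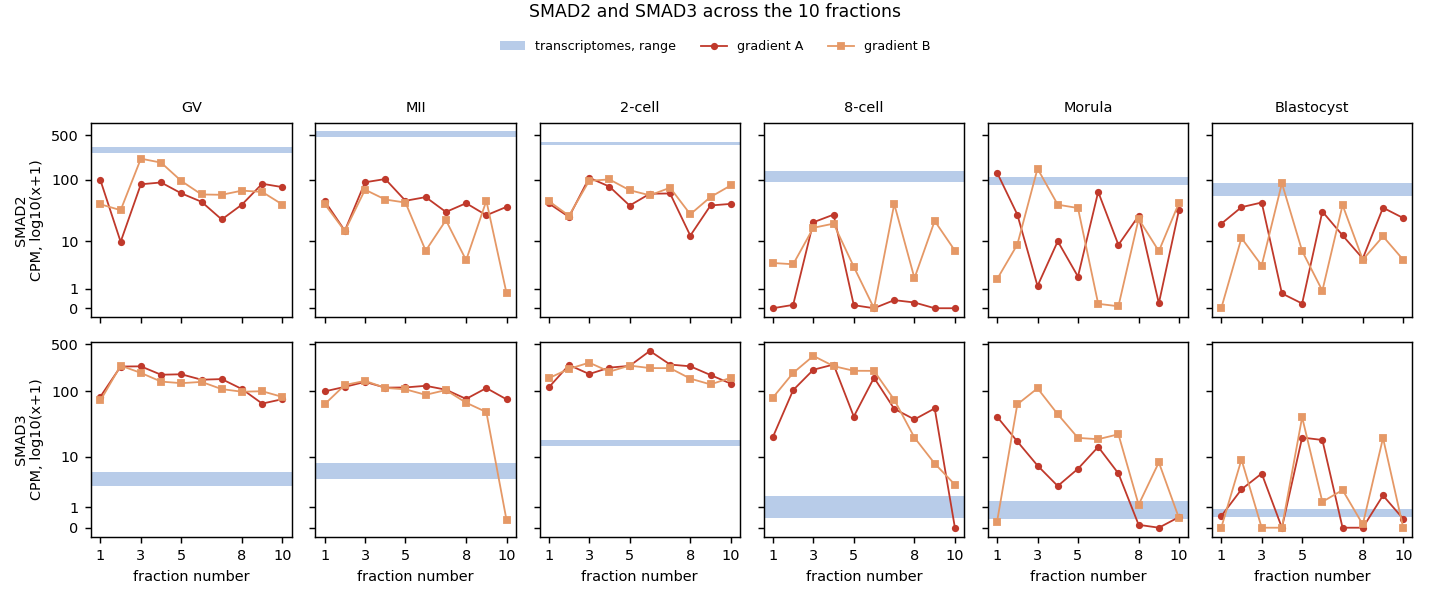
SMAD2 (top) and SMAD3 (bottom) in fractions F1 to F10 of gradients A and B at each stage, in CPM on an axis of log10(CPM + 1), with the range of the 3 transcriptomes as a blue band. From GV to 8-cell the SMAD2 fractions lie below the band and those of SMAD3 above it, apart from single fractions near 0.

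The rest of the pathway was read from 6 lists of 60 genes in all (other ligands, other receptors, other SMADs, convertases and modulators, intracellular regulators, and target genes), of which 54 were tested. In the transcriptome 7 rose and 1 fell from GV to MII, beside 6.61% and 10.5% of all genes. From MII to 2-cell 2 rose and 5 fell, beside 6.0% and 5.96%. From 2-cell to 8-cell 19 rose and 17 fell, beside 26.6% and 23.5%. From 8-cell to Morula 7 rose and 10 fell, beside 6.6% and 7.75%, and from Morula to Blastocyst 5 rose and 3 fell, beside 10.2% and 11.4%. From 2-cell to 8-cell NODAL, a ligand that signals through SMAD2 and SMAD3, went from 2.66, 3.36 and 1.504 CPM to 2 counts in the 3 libraries. LEFTY2, its antagonist, was called lower too, but its 2-cell libraries held 2 or 3 counts each and the 8-cell ones 0, at or under 3 counts in both groups, and no fold is given. The largest rises were CHRD, an extracellular BMP antagonist, from 0 to 5.06, 5.11 and 2.87 CPM, and ID4, a target gene.

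TNFAIP6, a matrix gene that GDF9 induces in cumulus cells, was at 82.0, 147 and 144 CPM in MII transcriptomes and at most 0.16 CPM in the GV and 2-cell ones. It rose from GV to MII (log2 change 10.9, adjusted p = 0.000121) and fell from MII to 2-cell (-9.59, adjusted p = 0.000372). HAS2, PTX3, PTGS2 and TNFAIP6 stand on both the target and the cumulus list, so a change in them and in cumulus RNA cannot be told apart here. On polysomes 3 of the 54 rose and 0 fell from GV to MII, beside 3.03% and 2.33% of all genes, and 1 rose and 2 fell from MII to 2-cell, beside 3.37% and 5.14%. From 2-cell to 8-cell 10 rose and 19 fell, beside 21.0% and 25.2%. From 8-cell to Morula 6 rose and 14 fell, beside 18.5% and 17.7%, and from Morula to Blastocyst 3 rose and 9 fell, beside 5.79% and 8.13%. NODAL stood at 12.5 and 14.5 CPM on 2-cell polysomes, and 0 counts were found in either 8-cell pool. ID3, a BMP target gene, averaged 3262 CPM on 8-cell polysomes and 53.9 CPM on those of the Morula (-5.92 ± 1.02, adjusted p = 0.000124). TGFBR2, the type II receptor of TGF-beta, was at 1.89 and 5.05 CPM on 2-cell polysomes and at 0 counts in the 8-cell, Morula and Blastocyst pools. The transcriptomes of these later stages averaged 8.1, 0.96 and 1.53 CPM, and TGFBR2 was called lower on polysomes in each.

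Against the transcriptome, 11, 16, 18, 16, 13 and 9 of the 54 genes were higher on polysomes in the 6 stages from GV to Blastocyst, beside 22.2%, 30.8%, 29.1%, 28.0%, 26.5% and 20.0% of all genes. In the same order 5, 15, 7, 10, 12 and 14 were lower, beside 17.7%, 26.7%, 21.9%, 31.0%, 25.2% and 20.1%. FURIN, a convertase that cuts proproteins of this superfamily, was at 40.5 and 87.0 CPM on GV polysomes and at 1.67, 0.718 and 2.94 CPM in transcriptomes (log2 difference 5.16 ± 0.61, adjusted p = 3.38e-07), and was higher by 4.86 ± 0.60 in 8-cell embryos (adjusted p = 3.85e-07). PCSK7, of the same convertase family, was higher by 5.33 ± 0.51 in MII (adjusted p = 3.73e-09). SMAD5, which carries the BMP15 signal, was lower on GV polysomes by 1.89 ± 0.51 (27.8 against 103 CPM on average, adjusted p = 0.00474). ACVR1B, a type I activin receptor, was at 22.6 and 12.6 CPM on 8-cell polysomes and at most 0.343 CPM in transcriptomes. ID1, another BMP target, averaged 293 CPM on Blastocyst polysomes and 7.15 CPM in transcriptomes (5.36 ± 0.56, adjusted p = 8.38e-08), and SMAD6, an inhibitory SMAD, 23.6 and 1.16 CPM in the Morula (4.34 ± 0.73, adjusted p = 3.28e-05). SKIL, a repressor of SMAD signalling, was at 30.1, 15.2 and 15.7 CPM in 8-cell transcriptomes and had 0 counts in both pools. The single fractions of these list genes were not compared with the transcriptomes. Whether their differences were limited to polysome fractions was not tested.

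The course of GDF9 over the 12 group means (6 transcriptome and 6 polysome means of log2(CPM + 1)) was most like those of THSD7B (Pearson r = 0.991), MYH15 (0.99), HECTD4 (0.99), DAB1 (0.989) and ARMC2 (0.989). For BMP15 they were TMTC2 (0.991), ZAR1L (0.99), MYF5 (0.982), DUSP10 (0.982) and ACCSL (0.981). GDF9 and BMP15 correlated at r = 0.963 with each other, and BMP15 was the 87th gene in likeness to GDF9. Among the other members BMPR1B was nearest to GDF9 (r = 0.911) and BMPR2 farthest (r = 0.359). These values are descriptions, since the 12 means share the 6 stages and their libraries.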

How the data were processed

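Expected counts per gene were deposited by the authors as 1 table of 120 fraction libraries and 18 transcriptomes: per the labels, Smart-seq V4 and Nextera XT libraries, with Salmon and edgeR named in the processing notes. The notes name UMD3.1 and the methods another assembly, so no coordinates or sequences are given. Counts were rounded, and those of F8 to F10 (polysomes) and F3 to F5 (light) were summed per gradient. Tests were edgeR quasi-likelihood (edgeR 4.0.16, R 4.3.3) with TMM factors, filterByExpr and Benjamini-Hochberg adjustment over all genes: 12 polysome pools with 18 transcriptomes in 12 groups, and 24 heavy and light pools. The 8 genes and the pathway and marker lists were chosen with earlier results of these data known. From the lists, the text names genes with the largest non-overlapping called changes. Deviations from the group mean correlated at -0.0687 to 0.0355 between pools and transcriptomes of one replicate letter. Heavy and light pools of one gradient come from the same lysate and gave only -0.0774 to 0.169. The measure therefore cannot tell whether letters pair pools with transcriptomes. The series text calls the samples biological replicates. The model of transcriptomes alone and the change of heavy against light between stages were added after the data were examined. Alternatives were DESeq2 1.42.0, the likelihood ratio test, other scalings, no filter, a replicate block, other fractions, and leaving out each library.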

Additional observations from a re-analysis of the deposited data

Results flagged for a closer look

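3 results were picked out because the change on polysomes differed from the change in the transcriptome between the same stages by a test of the difference itself. TGFBR1 fell more on polysomes than in the transcriptome from 2-cell to 8-cell (log2 difference -5.81, edgeR adjusted p = 0.0149), and rose relative to it from 8-cell to Morula (7.26, adjusted p = 0.00366). In 8-cell embryos its level was low across the gradient and not on polysomes alone, with a median of 0 CPM over the 20 fraction libraries. BMPR1B rose relative to the transcriptome from 8-cell to Morula (4.52, adjusted p = 0.0231). The last 2 rest on Morula pool B: without it they were -2.69 and -4.03. Groups of 2 or 3 libraries were too small for a search for outlying samples.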

How the results depend on the processing

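The 8 transcriptome calls were kept under the 2 other tests, 2 other scalings, no filter, the replicate block and every left-out library, and rose to 14 with transcriptomes fitted alone. The other counts moved as follows. For the polysome change minus the transcriptome change, 3 calls became 5 with the likelihood ratio test. For heavy against light fractions, 1 call became 4 with the likelihood ratio test, 5 with DESeq2, 5 with the replicate block (gradient), 9 with the slope over F3 to F10, and 0 with library totals only or with F9 and F10 against F3 and F4. With 1 library left out at a time, the counts ran from 8 to 8 (transcriptome), 9 to 15 (polysomes between stages), 20 to 27 (polysomes against transcriptome), 2 to 9 (difference of changes), 0 to 4 (heavy against light) and 0 to 2 (its change between stages), the last added after the data were examined. The highest of the difference of changes came without 8-cell pool B. A lone pool is then assumed to vary like the other groups.

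Of the called results, 3 turned sign, each without Morula pool B: TGFBR1 on polysomes from 8-cell to Morula (-3.67), and the difference of changes for TGFBR1 (-2.69) and BMPR1B (-4.03). Without Morula pool A the TGFBR1 values were 7.28 and 8.26, and without 8-cell pool B the BMPR1B difference was 7.68. Results not called also turned sign and passed the test. Without 8-cell pool B these were BMPR1A on polysomes from 8-cell to Morula (4.22, in place of -0.43) and its difference of changes from 2-cell to 8-cell (-3.89, in place of 0.75) and from 8-cell to Morula (4.19, in place of -0.46). Without Morula pool B they were BMPR1B from 8-cell to Morula (-8.04), GDF9 (5.70), TGFBR1 (7.68) and BMPR1B (6.58) from Morula to Blastocyst on polysomes, and BMP15 against the Morula transcriptome (-2.92). The replicate block (letter) left 8, 11, 20 and 3 calls in place of 8, 13, 23 and 3: it ended BMP15 from 2-cell to 8-cell (adjusted p = 0.0508) and SMAD2 from 8-cell to Morula (0.0551) on polysomes, and SMAD2 in GV (0.0604) and Blastocyst (0.0718), TGFBR1 in GV (0.0599) and BMPR1B in 2-cell (0.055) against the transcriptome, and added BMPR1A in 8-cell (0.049). With F9 and F10 only as polysomes, calls ended for BMPR1A (adjusted p = 0.0938) and BMP15 (0.0828) from 2-cell to 8-cell, SMAD2 from 8-cell to Morula (0.179), and, against the transcriptome, SMAD2 in GV (0.0701) and Blastocyst (0.135), BMPR2 in MII (0.07) and 2-cell (0.11) and BMPR1A in Morula (0.132); the difference of changes of BMPR1B became 0.32. Calls were added for BMPR1B from 8-cell to Morula (-3.69, in place of 0.50, adjusted p = 0.00787) and, against the transcriptome, TGFBR1 in MII (0.0209) and BMPR1B in Morula (0.0015) and Blastocyst (0.0156). Library totals only ended SMAD2 from 8-cell to Morula (0.0887) and TGFBR1 in GV (0.0521), and no filter SMAD2 in Blastocyst (0.0506). Scaling moved the median log2 change of all genes from 0.0 to as much as 0.465 (MII to 2-cell, library totals only) and from -0.265 to -0.504 (8-cell polysomes against transcriptome, RLE), and ended no call with RLE. Shallow Morula and Blastocyst fractions, where 3 counts amount to up to 2.44 CPM, limit what can be read from levels near 0.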
